A study of Oryctolagus cuniculus with 12 samples.

Results

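Type I interferon response genes were described across 12 bulk RNA-seq libraries of rabbit ear. The members were chosen by symbol from a list of 39 genes that interferon is known to induce or that carry its signal. Of these, 25 were found in the table of 29587 genes, no symbol repeated, and all 25 passed the filter on low expression, which kept genes averaging an FPKM of 1 or more across the libraries. FPKM, the deposited unit, counts fragments on a gene relative to the length of the gene and to the size of the library. The other 14 symbols were absent, and 10 of those genes were found through the protein name in 11 further rows, which are given apart.

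The study compared 4 groups of 3 wild type female rabbits, aged 10 to 12 weeks on purchase, with each rabbit in 1 group. NS was ear skin of untreated rabbits in which no scar was made. HS was untreated hypertrophic scar, a raised collagen-rich scar that forms after round wounds on the inner surface of the ear. In the drug-loaded MNs group each scar received 1 patch of separating microneedles, whose tips stay in the skin and carry a prodrug of 5-fluorouracil (5-Fu), an antimetabolite that blocks DNA synthesis. In the 5-Fu injection group each scar was injected with 120 μg of 5-Fu in a volume of 0.1 mL. Both treatments were given on days 22, 29 and 36 after wounding, and tissue was harvested on day 43. The tissue was the full thickness of the ear, so each library holds RNA of epidermis, dermis, cartilage and blood-derived cells together. The treated groups had no vehicle-treated or drug-free patch group among the libraries analysed here.

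Type I interferons (IFN-α, IFN-β and relatives) are secreted when a cell detects foreign or misplaced nucleic acid. They bind the receptor IFNAR1/IFNAR2 on the same or neighbouring cells, the kinases JAK1 and TYK2 then phosphorylate STAT2, which acts with IRF9 in a complex that switches on interferon-stimulated genes. The products include sensors that detect viral RNA, factors that amplify the signal, the ubiquitin-like protein ISG15, enzymes that degrade or edit RNA, and chemokines that attract lymphocytes. Skin keratinocytes, fibroblasts and resident immune cells can all express them.

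Reads on genes, counted back from the FPKM values, ranged from 10521472 to 14043667 per library. An FPKM of 0.0768 to 0.0972 corresponded to 1 read on a gene of 1 kilobase. ISG20 carried 3 to 50 reads in any library. The other members carried from 9 reads (CXCL10 in HS replicate 1) to 11966 reads (IRF7 in NS replicate 2). The lowest counts of OASL, HERC6 and RSAD2 were 25, 35 and 35 reads. The summed FPKM of 9 fibroblast markers was 2689 to 3834 in NS and 38009 to 49600 in HS, and that of 9 cartilage markers was 477 to 5655 over the 12 libraries, so the scar label and the full-thickness label were both visible in the tissue markers.

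The main feature of these genes was the spread between rabbits of 1 group. NS replicate 2 had the highest value of the 12 libraries for 24 of the 25 genes, against 7.68% of all 13287 genes tested. NS replicate 3 had the lowest NS value for 24 of 25, against 36.6% of all genes. The ratio of NS replicate 2 to NS replicate 3 had a median of 10.0 over the 25 genes and 0.987 over all genes tested. The same ratio for NS replicate 1 over NS replicate 3 was 4.50 and 1.00. NS replicate 2 also exceeded NS replicate 1 for 25 of 25 genes, with a median ratio of 2.35. The NS group thus held a very high, a high and a low rabbit, and it was the same rabbits for nearly every gene. In bulk tissue, fewer cells of a type and less RNA per cell cannot be told apart.

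The other groups differed in how uniform they were. In HS, 3 of the 25 genes spanned more than 4-fold between the lowest and the highest library (12%, against 4.34% of all genes). The same count was 23 in NS (92%, against 5.52%), 9 in the drug-loaded MNs group (36%, against 4.11%) and 4 in the 5-Fu injection group (16%, against 7.34%). In the drug-loaded MNs group replicate 1 was the highest for 24 of 25 genes (34.7% of all genes), at a median of 2.20 times the higher of the other two. In the 5-Fu injection group replicate 1 was the highest for 21 of 25 genes (35.9% of all genes), and it exceeded replicate 3 for 25 of 25 with a median ratio of 1.93. Genes within a library are not independent replicates, so these counts describe libraries and carry no test.

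A median over the 25 genes summarised each library on the log2(FPKM + 1) scale, relative to the HS mean of each gene. It was 1.42, 2.68 and -0.21 in NS replicates 1, 2 and 3, and -0.26, 0.09 and 0.22 in HS. It was 1.00, -0.07 and -0.10 in the drug-loaded MNs replicates and 1.05, 0.71 and 0.19 in the 5-Fu injection replicates. NS replicate 3 therefore lay among the HS libraries, as did replicates 2 and 3 of the drug-loaded MNs group and replicate 3 of the 5-Fu injection group. The median over all genes tested stayed between -0.02 and 0.02 in every library.

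**Figure D1:**
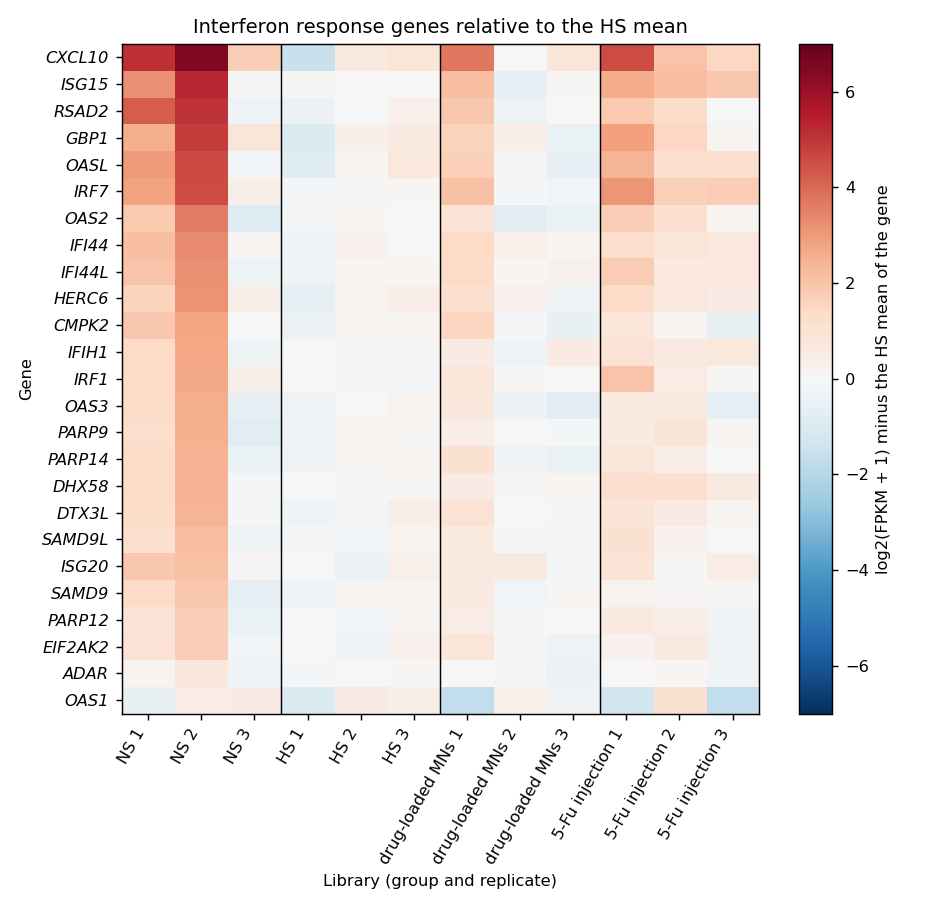
Heat map of 25 interferon response genes (vertical axis) in the 12 libraries (horizontal axis, black lines between groups). Colour is log2(FPKM + 1) minus the HS mean of the gene, with genes ordered by NS replicate 2. NS replicates 1 and 2, drug-loaded MNs replicate 1 and 5-Fu injection replicates 1 and 2 are red over most rows, NS replicate 3 is close to the HS colour, and OAS1 in the bottom row does not share the pattern.

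Markers of immune cells were set beside these values. The summed FPKM of the T cell markers (4 of 10 found) was 4.89, 15.3 and 3.56 in NS replicates 1, 2 and 3 and 45.5, 7.03 and 10.5 in the 5-Fu injection replicates, while HS held 2.56 to 3.51 and the drug-loaded MNs group held 3.85 to 7.37. The NK cell markers (2 of 7 found) summed to 2.01, 6.33 and 0.763 in NS and to 22.9, 1.80 and 2.14 in 5-Fu injection, with 0.522 to 0.887 for HS and 0.683 to 1.24 for drug-loaded MNs. The B cell markers (6 of 7 found) summed to 3.49, 13.0 and 1.86 in NS and to 42.9, 6.01 and 7.94 in 5-Fu injection, with 5.69 to 6.47 for HS and 3.31 to 7.29 for drug-loaded MNs. These lymphocyte markers ranked the NS rabbits as the interferon response genes did, and they were highest in 5-Fu injection replicate 1. That replicate was the highest of its group for 21 of the members (84%), and the highest of the 12 libraries for 0. Of 24 other interferon-induced genes, 3 were highest of the 12 libraries in that replicate and 17 in NS replicate 2. Of 17 genes of interferon gamma and antigen processing, 6 were highest in that replicate and 11 in NS replicate 2. Of all genes tested, 12.4% were highest in 5-Fu injection replicate 1 and 7.68% in NS replicate 2, so 3 of 24 was near the background. Macrophage markers (11 of 11 found) summed to 215, 447 and 272 in NS and to between 327 and 530 in HS. Their sum was 251 to 437 under the patch and 282 to 651 after injection. Neutrophil markers (5 of 8 found, MMP8 at 0 in all libraries) summed to 191, 511 and 2.90 in NS and to between 4.16 and 753 in HS. Their sum was between 3.87 and 1202 under the patch and between 26.1 and 293 after injection. Plasmacytoid dendritic cells are the main makers of type I interferon in blood, and their markers (2 of 7 found) summed to 23.6, 39.9 and 16.9 in NS and to between 31.2 and 47.4 in HS. The sum was 42.1, 28.7 and 30.7 in the drug-loaded MNs replicates and 42.1, 29.6 and 20.7 in the 5-Fu injection replicates. IRF8, among the 2 found, is also counted in a related gene list. The neutrophil and plasmacytoid dendritic cell markers also ranked the NS rabbits as the interferon response genes did, and the macrophage markers did not. Keratinocyte markers (7 found) ranked the NS rabbits in the reverse order, with sums of 3471, 2448 and 4122 in NS replicates 1, 2 and 3. Mitochondrial reads made up 4.73% to 6.66% of the reads for NS and 3.20% to 3.83% for HS. Under the patch they were between 4.34% and 5.41%, and after injection between 5.50% and 10.7%. Fibroblast markers (9 found) summed to between 2689 and 3834 for NS and between 38009 and 49599.5 for HS. Their sum was between 19319 and 27648 under the patch, and 5423, 27131 and 6921 in replicates 1, 2 and 3 after injection. The part of these cells and of the mitochondrial share in the differences between rabbits and groups was not tested.

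HS against NS asked which genes differ between scar and unwounded skin. All 25 genes had a lower mean in HS than in NS on the log scale, against 51.4% of all genes tested, with a median log2 fold change of -1.34 over the members and -0.01 over all genes. None was called, a call being a limma adjusted p under 0.05 with an absolute log2 fold change above 1, where 5% of all genes tested were called. At an unadjusted p under 0.05 there were 15 of 25, all lower in HS, against 23.4% of all genes in either direction. The smallest adjusted p was 0.0668, for CXCL10. The standard error of the log2 fold change had a median of 0.61 over the members and 0.23 over all genes. The groups did not overlap for 4 genes, CXCL10, IRF7, IRF1 and GBP1, and 15.3% of all genes were lower without overlap in this comparison, so the count of 4 of 25 is near that background. NS replicates 1 and 2 both lay above every HS library for 24 of 25 genes (22.6% of all genes). NS replicate 3 lay inside the HS range for 8 of 25, below it for 12 and above it for 5. Of all 13287 genes tested, it lay inside for 4388, below for 4502 and above for 4397.

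The single NS rabbit with low values decided the count. With NS replicate 3 left out, 20 of the 25 genes were called lower in HS by the same limma fit, where 1.63% of all genes were called lower and 4.91% in either direction. Leaving out any 1 of the other 11 libraries gave 0. The 5 genes not called without that rabbit were ADAR, EIF2AK2, IRF1, OAS1 and OAS3. The 20 calls then rest on 2 NS rabbits. With FPKM rescaled to the total of reads and all libraries kept, 8 of 25 were called lower, where 5.64% of all genes were called lower.

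The sensors of viral RNA are described first. IFIH1 (MDA5), which detects long double-stranded RNA, had an FPKM of 12.3, 31.5 and 3.01 in NS replicates 1, 2 and 3 and of 3.91, 3.71 and 4.32 in HS. Its FPKM was 6.38, 3.07 and 6.30 in the drug-loaded MNs group and 9.03, 6.63 and 7.36 in the 5-Fu injection group. NS replicates 1 and 2 were above all HS libraries and NS replicate 3 was below all of them, with a log2 fold change of -1.27 (SE 0.57, adjusted p = 0.207) for HS against NS. DHX58 (LGP2), a helicase that tunes the sensing by IFIH1 and RIG-I, had an FPKM of 22.5, 48.8 and 7.83 in NS and of 8.23, 7.88 and 8.84 in HS. It was 12.8, 8.86 and 9.18 in the drug-loaded MNs group and 20.3, 19.3 and 13.3 in the 5-Fu injection group. For DHX58 all 3 HS libraries lay below all 3 of either treated group, but the highest HS value of 8.84 nearly met the lowest drug-loaded MNs value of 8.86. NS replicate 3, at 7.83, was only just lower than the lowest HS value of 7.88. The log2 fold change for HS against NS was -1.23 (SE 0.47, adjusted p = 0.143).

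The transcription factors came next in the pathway. IRF7 drives the amplifying wave of IFN-α transcription and is itself induced by interferon. Its FPKM was 169.5, 571 and 31.3 in NS replicates 1, 2 and 3, 20.8, 24.8 and 24.6 in HS, 99.5, 22.2 and 20.4 in the drug-loaded MNs group and 206, 76.0 and 78.5 in the 5-Fu injection group. NS and 5-Fu injection libraries were all above the HS libraries, and the widest range was in NS. The log2 fold change of IRF7 for HS against NS was -2.59 (SE 0.89, adjusted p = 0.11). IRF1, a factor that both interferon classes induce, had an FPKM of 68.9, 167 and 33.8 in NS, 25.6, 27.0 and 23.3 in HS, 47.1, 26.7 and 24.4 in the drug-loaded MNs group and 104, 37.0 and 26.6 in the 5-Fu injection group. Its NS libraries were again all above HS, by a log2 fold change of -1.50 (SE 0.56, adjusted p = 0.137) for HS against NS.

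ISG15 is a ubiquitin-like protein that is attached to other proteins and is also secreted. Its FPKM was 88.2, 378 and 7.81 in NS replicates 1, 2 and 3, while the 3 HS values of 9.02, 8.32 and 8.50 spanned the narrowest range of the 4 groups. It was 40.1, 5.41 and 9.29 in the drug-loaded MNs group and 57.8, 42.4 and 35.1 in the 5-Fu injection group. NS replicate 3 lay below all HS libraries and the other two NS rabbits lay far above them. The log2 fold change for HS against NS was -2.80 (SE 1.08, adjusted p = 0.145), and its 12 values are those of the plot of 8 genes. HERC6, of the HECT ligase family that attaches ISG15, had an FPKM of 8.83, 28.3 and 3.31 in NS, 1.02, 2.84 and 3.58 in HS, 6.06, 3.03 and 1.77 in the drug-loaded MNs group and 7.23, 4.57 and 3.92 in the 5-Fu injection group. For HERC6 the NS and HS ranges met at NS replicate 3, and the log2 fold change was -1.71 (SE 0.61, adjusted p = 0.117).

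**Figure D2:**
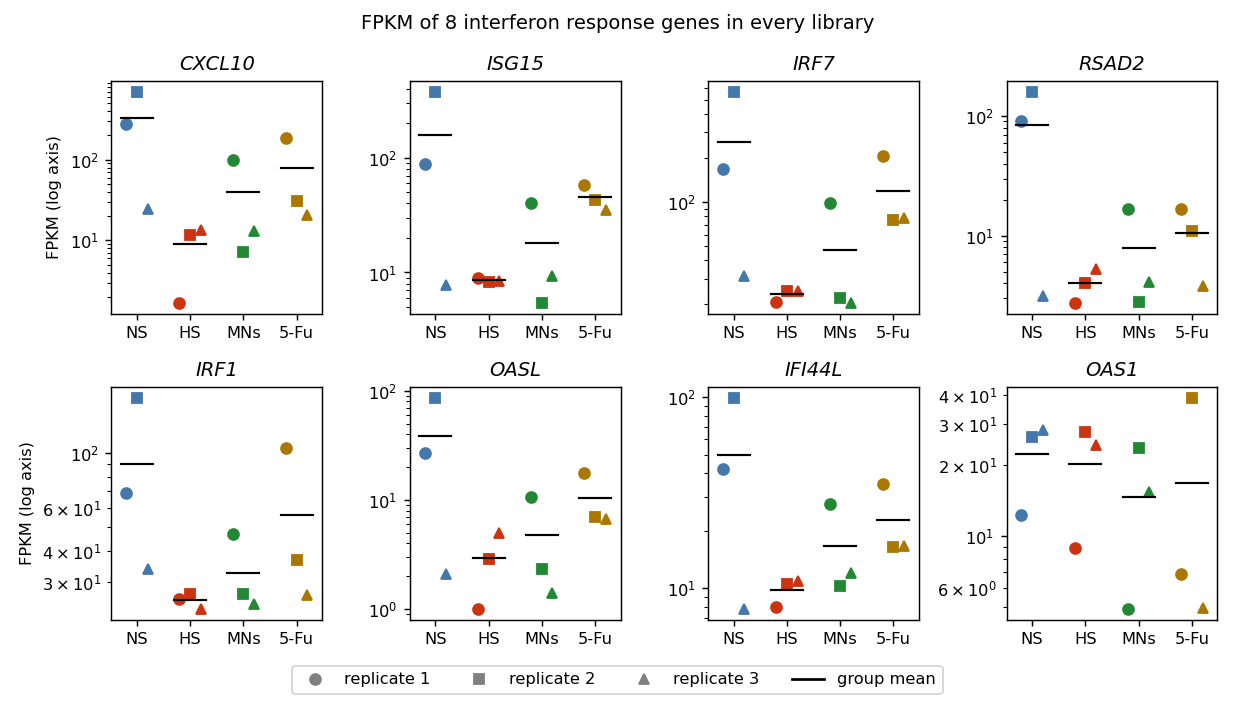
FPKM of 8 interferon response genes (vertical log axis, with its own scale in each panel) by group (horizontal axis, MNs for drug-loaded MNs and 5-Fu for 5-Fu injection). Markers tell the 3 replicates apart and black lines are group means. NS replicates 1 and 2 sit above all HS points except for OAS1, and the NS replicate 3 triangle sits near the HS points.

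The enzymes that act on RNA included the oligoadenylate synthetases, which make a messenger that activates the nuclease RNase L. OAS2 had an FPKM of 28.1, 99.9 and 3.33 in NS replicates 1, 2 and 3, 6.20, 7.84 and 7.23 in HS, 15.3, 3.66 and 4.85 in the drug-loaded MNs group and 25.9, 16.5 and 8.19 in the 5-Fu injection group. NS replicate 3 was below every HS library, and the log2 fold change of HS against NS was -1.53 (SE 0.91, adjusted p = 0.347). OASL, a catalytically inactive relative that enhances RIG-I signalling, had an FPKM of 27.2, 86.1 and 2.10 in NS, 1.00, 2.89 and 5.01 in HS, 10.5, 2.32 and 1.40 in the drug-loaded MNs group and 17.6, 6.98 and 6.70 in the 5-Fu injection group. The 3 HS values of OASL spanned more than 4-fold. OASL had a log2 fold change of -2.45 (SE 1.02, adjusted p = 0.178). ISG20, an exonuclease of single-stranded RNA, had an FPKM of 6.20, 7.04 and 1.09 in NS and of 1.02, 0.483 and 1.49 in HS at 3 to 50 reads per library, so that counting error adds to its spread. The log2 fold change of ISG20 was -1.34 (SE 0.47, adjusted p = 0.116).

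The remaining genes of this role had smaller differences. OAS3 ranged over FPKM of 2.76 to 38.3 across the 12 libraries with a log2 fold change of -1.11 (SE 0.69, adjusted p = 0.37), and EIF2AK2 (PKR), the kinase that halts translation on double-stranded RNA, ranged over 1.45 to 9.24 with -0.84 (SE 0.46, adjusted p = 0.313). ADAR, the adenosine deaminase that edits double-stranded RNA and has a constitutive form, was the most even of the 25, with FPKM of 50.1 to 116. ADAR had a log2 fold change of -0.24 (SE 0.24, adjusted p = 0.587).

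OAS1 stood apart from the rest, and was singled out after its values were seen. Its FPKM was 12.2, 26.5 and 28.3 in NS replicates 1, 2 and 3, 8.88, 27.9 and 24.4 in HS, 4.88, 23.6 and 15.4 in the drug-loaded MNs group and 6.93, 38.8 and 4.93 in the 5-Fu injection group. It was the only one of the 25 with its highest value outside NS replicate 2, in 5-Fu injection replicate 2, and the only one for which NS replicate 3 was the highest of its group and drug-loaded MNs replicate 1 the lowest. The groups overlapped throughout, with a log2 fold change of -0.19 (SE 0.74, adjusted p = 0.907) in HS against NS that became 0.02 without NS replicate 3. OAS1, OAS2 and OAS3 lie in a row on chromosome 21 of the table's coordinates, 5571 and 6089 bases apart (the genome build is not given in the sources used here). Closely related sequences of this family can share reads, which makes the values of a single member uncertain.

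The GTPases and other direct antiviral effectors followed the same rabbits. RSAD2 (viperin), which makes a chain-terminating nucleotide, had an FPKM of 90.4, 160.1 and 3.15 in NS replicates 1, 2 and 3, 2.72, 3.99 and 5.21 in HS, 16.8, 2.77 and 4.05 in the drug-loaded MNs group and 16.5, 11.0 and 3.75 in the 5-Fu injection group. NS replicate 3 lay inside the HS range and the log2 fold change was -3.02 (SE 1.13, adjusted p = 0.136). GBP1, a guanylate-binding protein that coats intracellular pathogens, had an FPKM of 38.2, 199 and 11.3 in NS, 2.38, 7.94 and 9.60 in HS, 18.9, 8.39 and 3.91 in the drug-loaded MNs group and 49.1, 17.8 and 6.74 in the 5-Fu injection group. All NS libraries of GBP1 were above all HS libraries, and its log2 fold change was -2.75 (SE 0.97, adjusted p = 0.116). CMPK2, a mitochondrial nucleotide kinase, lies 5918 bases from RSAD2 on an unplaced scaffold and in opposite orientation. Its FPKM was 12.9, 24.0 and 2.85 in NS and 1.79, 3.29 and 3.33 in HS, with a log2 fold change of -1.56 (SE 0.68, adjusted p = 0.193). SAMD9 and SAMD9L, paralogs that restrict poxviruses, ranged over FPKM of 2.70 to 20.3 and 4.84 to 32.7, with log2 fold changes of -0.86 (SE 0.50, adjusted p = 0.342) and -0.997 (SE 0.52, adjusted p = 0.283).

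PARP9, DTX3L, PARP12 and PARP14 belong to ADP-ribosylation, and DTX3L is the ubiquitin ligase that partners PARP9. DTX3L and PARP9 lie 4389 bases apart on chromosome 14 in opposite orientation, and PARP14 lies 60270 bases on the other side of DTX3L. DTX3L had an FPKM of 15.0, 32.2 and 4.78 in NS replicates 1, 2 and 3, 4.21, 5.05 and 7.46 in HS, 11.9, 5.41 and 4.99 in the drug-loaded MNs group and 11.0, 8.80 and 6.34 in the 5-Fu injection group. PARP9 had an FPKM of 17.8, 44.6 and 3.75 in NS and 5.54, 8.50 and 7.76 in HS, and PARP14 had 10.4, 23.5 and 2.35 in NS and 2.86, 3.93 and 3.93 in HS. For PARP9 and PARP14 NS replicate 3 was below all HS libraries, and for DTX3L it was inside the HS range. The log2 fold changes for HS against NS were -1.17 (SE 0.53, adjusted p = 0.21) for DTX3L, -0.97 (SE 0.61, adjusted p = 0.379) for PARP9 and -1.10 (SE 0.61, adjusted p = 0.315) for PARP14. PARP12 ranged over FPKM of 11.7 to 56.0 and had -0.72 (SE 0.45, adjusted p = 0.372).

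IFI44 and IFI44L, paralogs of little known function that are standard readouts of interferon exposure, lie 4774 bases apart on chromosome 13. IFI44L had an FPKM of 42.0, 99.2 and 7.76 in NS replicates 1, 2 and 3, 7.98, 10.6 and 10.9 in HS, 27.5, 10.3 and 12.0 in the drug-loaded MNs group and 35.1, 16.5 and 16.6 in the 5-Fu injection group. IFI44 had 25.4, 59.8 and 5.65 in NS, 3.92, 6.45 and 5.00 in HS, 14.8, 6.63 and 5.68 in the drug-loaded MNs group and 13.2, 10.1 and 9.15 in the 5-Fu injection group. Both were above every HS library in all 3 of the 5-Fu injection libraries. The log2 fold changes of HS against NS were -1.65 (SE 0.71, adjusted p = 0.191) for IFI44L and -1.87 (SE 0.63, adjusted p = 0.101) for IFI44.

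CXCL10, the chemokine that draws CXCR3-bearing T cells, had the largest difference. It lies on chromosome 15 at 74369017 to 74370722 of the table's coordinates. Its FPKM was 274, 699 and 24.6 in NS replicates 1, 2 and 3 and 1.67, 11.7 and 13.4 in HS. It was 99.6, 7.13 and 13.0 in the drug-loaded MNs group and 184, 30.6 and 20.4 in the 5-Fu injection group. All NS libraries lay above all HS libraries, and NS replicate 3 was within 2-fold of HS replicate 3. The lowest value, in HS replicate 1, came from 9 reads. The log2 fold change of CXCL10 for HS against NS was -4.43 (SE 1.31, adjusted p = 0.0668), the lowest of all 13287 genes tested, yet it missed the threshold.

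**Figure D3:**
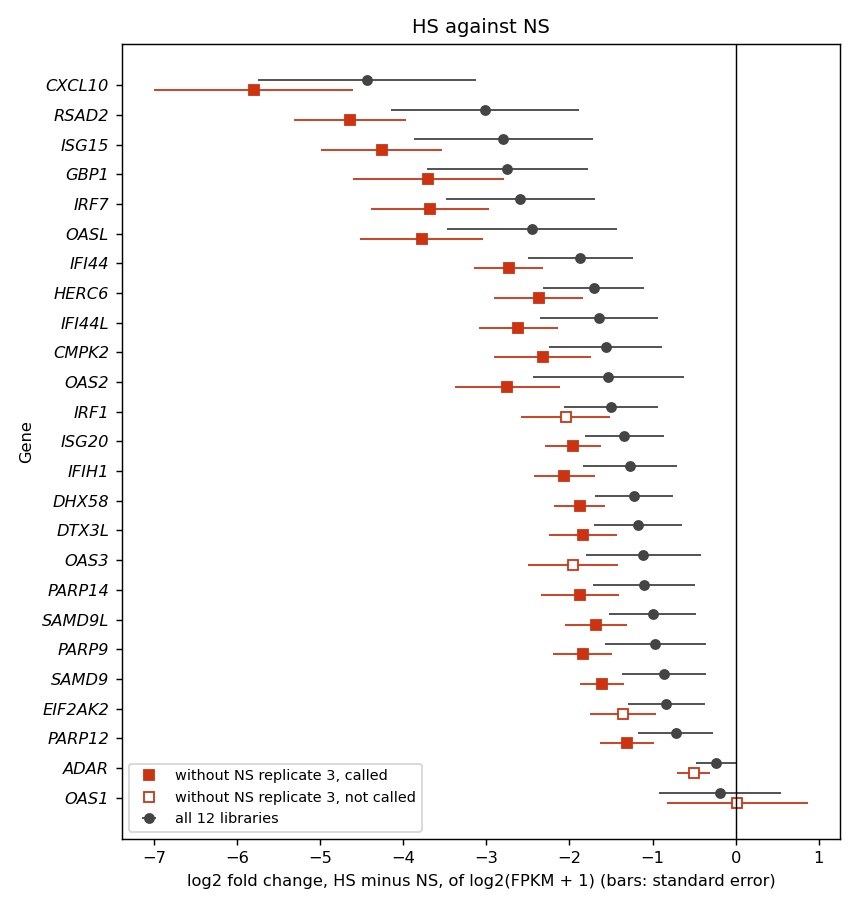
Log2 fold change of HS against NS (horizontal axis, log2(FPKM + 1) scale, bars 1 standard error) for 25 interferon response genes (vertical axis). Grey circles are the fit of all 12 libraries, in which 0 genes were called, and red squares the fit without NS replicate 3, filled for the 20 genes called. Every grey circle lies left of 0, and the red squares lie further left for all genes but OAS1.

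The genes found through their protein name followed the same libraries. NS replicate 2 was the highest of 12 in all 11 rows, and NS replicate 3 the lowest of its group in all 11. The row ENSOCUG00000021924, described as MX1, the GTPase that traps viral nucleocapsids, had an FPKM of 173, 517 and 57.4 in NS replicates 1, 2 and 3, 45.6, 61.7 and 59.7 in HS, 96.1, 47.8 and 45.9 in the drug-loaded MNs group and 146, 118 and 87.6 in the 5-Fu injection group. A shorter second row with the same description had 143, 368 and 47.0 in NS and 30.5, 49.9 and 51.2 in HS, and the 2 rows may share reads. USP18, the protease that removes ISG15 and dampens the receptor, had an FPKM of 13.5, 36.3 and 1.74 in NS and 1.81, 2.44 and 3.06 in HS. The row described as STAT2, which is part of the signal itself, differed from the rest, with 8.69, 15.3 and 6.14 in NS and 11.8, 8.86 and 8.99 in HS. That row is 735 bases long and carried 44 to 146 reads per library, and whether it covers the whole gene was not tested. Of the 11 rows 0 were called in HS against NS (5% of all genes tested) and 7 had an unadjusted p under 0.05 (23.4% of all genes), with log2 fold changes from -1.75 (USP18) to 0.06 (STAT2). HERC5 had the lowest adjusted p of the 11, with a log2 fold change of -1.47 (SE 0.42, adjusted p = 0.0607). Its FPKM was 10.4, 35.8 and 8.23 in NS and 3.76, 5.01 and 5.42 in HS. It was the only row of the 11 lower in HS without overlap, where 15.3% of all genes were.

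The ligands were almost unread. Of 19 rows for type I interferons, 18 had 0 reads in all 12 libraries, IFNB1 and the keratinocyte interferon IFNK among them. The single row with reads was IFNE, with 4 reads over the 12 libraries. The only type III row had 0 reads, and IFNG, the type II ligand made by T and NK cells, had 49 reads in total, of which 30 came from 5-Fu injection replicate 1 and 12 from NS replicate 2. A count of 0 says only that no such transcript was detectable at this depth.

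The receptors and kinases of the pathway had the same order of NS rabbits, with smaller differences. Their median relative to the HS mean was 0.11, 0.28 and -0.07 in NS replicates 1, 2 and 3. NS replicate 2 was the highest NS library for 7 of the 9 genes, against 33.9% of all genes. Of 9 genes tested, 1 was called in HS against NS, where 5% of all genes were, and this was IFNLR1, the type III interferon receptor of epithelial cells. Its FPKM was 16.6, 10.7 and 17.3 in NS replicates 1, 2 and 3 and 3.14, 5.22 and 5.07 in HS, with a log2 fold change of -1.53 (SE 0.30, adjusted p = 0.0133), and keratinocyte markers were lower in HS too (summed FPKM of 7 markers 2448 to 4122 in NS and 1445 to 2024 in HS). The part of the keratinocyte markers in that change was not tested. The call of IFNLR1 was lost without NS replicate 1 (adjusted p = 0.0596) or HS replicate 1 (adjusted p = 0.0559). IFNAR1 had an FPKM of 32.2, 37.1 and 29.7 in NS and 43.3, 44.9 and 50.3 in HS, and IFNAR2 had 35.2, 36.0 and 25.4 in NS and 29.1, 35.01 and 33.9 in HS. Both receptor chains were read in every library, with log2 fold changes of 0.47 (SE 0.19, adjusted p = 0.165) and 0.03 (SE 0.15, adjusted p = 0.921), and the sign for IFNAR2 turned to -0.32 with FPKM rescaled to the total of reads.

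Sensing genes upstream of interferon (7 tested) and feedback inhibitors (3 tested) had 0 calls in HS against NS, with 1 and 0 genes at an unadjusted p under 0.05, against 5% and 23.4% of all genes. STING1, the adaptor for cytosolic DNA, had an FPKM of 6.16, 21.3 and 5.82 in NS and 3.24, 4.83 and 4.62 in HS. TLR3, the endosomal receptor of double-stranded RNA, had 4.10, 8.45 and 1.46 in NS and 2.13, 1.70 and 1.42 in HS, and TLR8, which detects single-stranded RNA, had 0.771, 4.10 and 0.633 and 4.10, 2.39 and 3.09. The log2 fold changes were -0.99 (adjusted p = 0.164, called at 0.0455 with FPKM rescaled to the total of reads) for STING1, -0.84 (adjusted p = 0.271) for TLR3 and 0.75 (adjusted p = 0.318) for TLR8. PIAS1, a SUMO ligase, and the phosphatases PTPN2 and PTPN6 had -0.36 (adjusted p = 0.448), 0.22 (adjusted p = 0.586) and -0.08 (adjusted p = 0.938).

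Among 24 other interferon-induced genes, 21 had a negative log2 fold change in HS against NS and 1 was called, a count near the 5% of all genes called. The called gene was BATF2, a transcription factor of activated macrophages. Its FPKM was 8.00, 15.5 and 7.28 in NS and 3.09, 4.66 and 4.17 in HS, and its log2 fold change was -1.12 (SE 0.30, adjusted p = 0.0474). The call of BATF2 was lost when any one of NS replicates 1 and 2, the 3 HS libraries, drug-loaded MNs replicate 3 and the 3 5-Fu injection libraries was left out (adjusted p up to 0.151). It was also lost with a pseudocount of 0.1, no filter, quantile normalization, only the groups compared or limma voom (adjusted p from 0.0525 to 0.0867). Without NS replicate 3 the count of this list was 8, where 4.91% of all genes were called. IFIT3, UBA7 (the activating enzyme of ISG15) and DDX60 (a helicase) were not called, with log2 fold changes of -2.07 (adjusted p = 0.15), -2.01 (adjusted p = 0.0803) and -1.96 (adjusted p = 0.139). UBA7 was called with FPKM rescaled to the total of reads (adjusted p = 0.0303), and all 3 were called without NS replicate 3. IFIT3, a scaffold that binds foreign RNA complexes, had an FPKM of 56.4, 165 and 8.77 in NS and 7.85, 10.2 and 11.6 in HS, the order of rabbits seen in the members.

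Of 17 genes of interferon gamma and antigen processing, 15 had a negative log2 fold change and 1 was called (5% of all genes), with 6 called without NS replicate 3 (4.91% of all genes). The called gene was TAP1, which carries peptides to MHC class I. Its FPKM was 105, 209.8 and 62.7 in NS, 20.6, 32.8 and 33.3 in HS, 58.4, 41.5 and 24.6 in the drug-loaded MNs group and 151, 68.1 and 53.2 in the 5-Fu injection group. All NS libraries of TAP1 were above all HS libraries, and its log2 fold change was -1.94 (SE 0.48, adjusted p = 0.0343). That call was lost when any one of NS replicates 1 and 2, the 3 HS libraries and drug-loaded MNs replicate 2 was left out (adjusted p from 0.0515 to 0.120), and with no filter on low expression (adjusted p = 0.0642). The chemokines CXCL11 and CXCL9, which share the receptor of CXCL10, had -4.32 (SE 1.27, adjusted p = 0.0636) and -2.43 (SE 1.19, adjusted p = 0.251). CXCL11 passed the threshold without 5-Fu injection replicate 1 (adjusted p = 0.0476) or NS replicate 3 (adjusted p = 0.0109), and with FPKM rescaled to the total of reads (adjusted p = 0.0293). CXCL11 had an FPKM of 129.8, 377 and 8.42 in NS, 1.31, 3.48 and 4.61 in HS, 62.8, 12.4 and 8.90 in the drug-loaded MNs group and 108, 18.4 and 8.89 in the 5-Fu injection group.

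Of 14 genes of NF-κB and acute inflammation 1 was called in HS against NS (5% of all genes), CCL20, a chemokine of activated epithelium that was lower in HS, and 3 were called without NS replicate 3 (4.91% of all genes). CCL20 had an FPKM of 37.0, 20.3 and 21.1 in NS and 3.18, 2.42 and 5.61 in HS with a log2 fold change of -2.52 (SE 0.42, adjusted p = 0.00598). Its NS replicate 1 was the highest and its NS replicates 2 and 3 were alike, unlike the members. BIRC3, an inhibitor of apoptosis, and the cytokine IL1B were not called, at -1.52 (adjusted p = 0.0797) and -1.45 (adjusted p = 0.283). NFKBIA, the inhibitor of NF-κB, had -0.83 (SE 0.16, adjusted p = 0.0131), which passes on p and misses the fold threshold. With FPKM rescaled to the total of reads, NFKBIA (-1.19, adjusted p = 0.00343) and BIRC3 (-1.85, adjusted p = 0.0266) were called lower in HS.

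**Figure D4:**
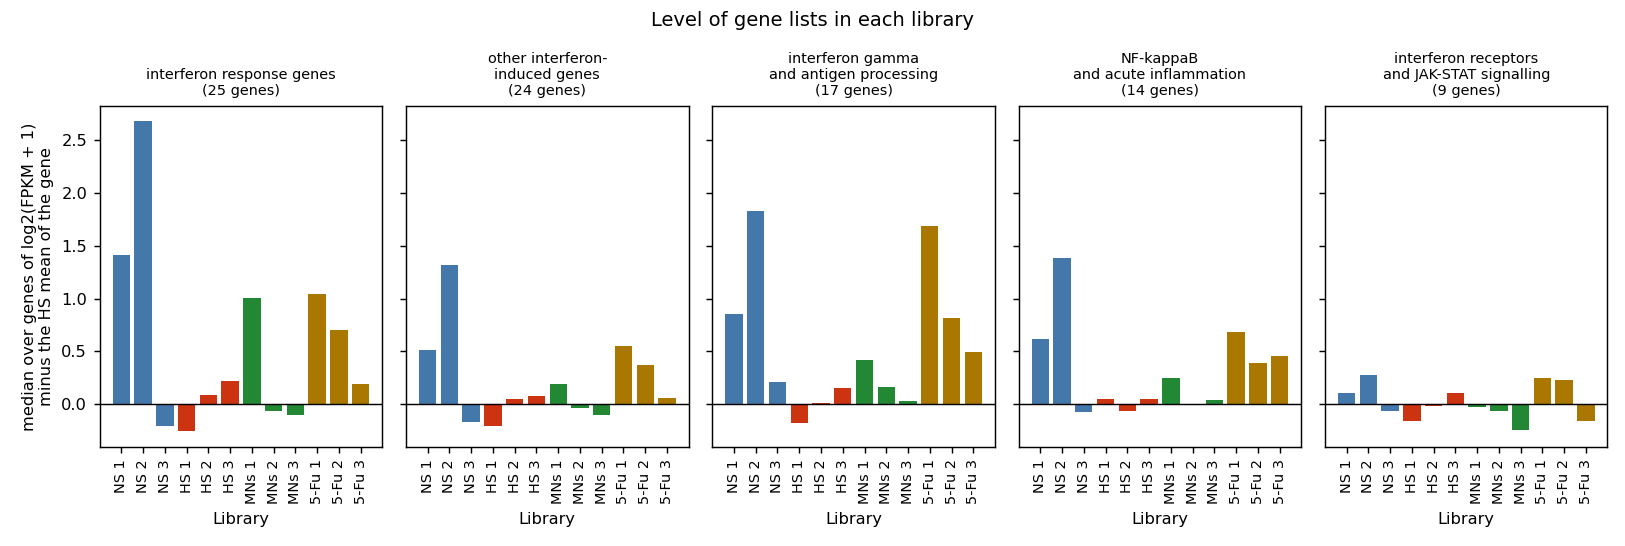
Bars give, for each of the 12 libraries (horizontal axis), the median over the genes of a list of log2(FPKM + 1) minus the HS mean of the gene (vertical axis), coloured by group. The first panel holds the 25 interferon response genes, at 2.68 in NS replicate 2 and -0.21 in NS replicate 3, and the other panels hold 4 related lists. The first 4 panels share high NS replicates 1 and 2, and 5-Fu injection replicate 1 is highest of its group in each of them.

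Drug-loaded MNs against HS compared scar under the patch with untreated scar. None of the 25 genes was called, where 0.00753% of all genes tested were called, and 0 had an unadjusted p under 0.05, against 8.9% of all genes. The median log2 fold change was 0.28 over the members and -0.02 over all genes, with 21 of 25 positive, and the smallest adjusted p was 0.793. DHX58 was the only gene higher in the drug-loaded MNs group without overlap, where 8.53% of all genes were. The margin for DHX58 was narrow, with a lowest FPKM of 8.86 under the patch and a highest of 8.84 in HS. CXCL10 (1.52, SE 1.31, adjusted p = 0.793), IFI44 (0.63, SE 0.63, adjusted p = 0.824) and IRF7 (0.60, SE 0.89, adjusted p = 0.882) had the largest differences. For each of these 3 the positive value came with replicate 1 far above the other two, whose values lay within or near the HS range. Without drug-loaded MNs replicate 1 the median over the 25 genes was -0.038, and IRF7 reversed to -0.13.

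5-Fu injection against HS compared injected with untreated scar, and used the same HS libraries. Again 0 of 25 were called, where 2.29% of all genes tested were called, and 1 had an unadjusted p under 0.05, IRF7, against 26% of all genes. The median log2 fold change was 0.79 over the members and 0.02 over all genes, with 23 of 25 positive. The groups did not overlap for 10 genes, all higher in the 5-Fu injection group, where 13.9% of all genes were higher without overlap. They were CXCL10, DHX58, HERC6, IFI44, IFI44L, IFIH1, IRF7, ISG15, OAS2 and OASL. CXCL10 (2.67, SE 1.31, adjusted p = 0.226), ISG15 (2.23, SE 1.08, adjusted p = 0.216) and IRF7 (2.15, SE 0.89, adjusted p = 0.159) had the largest differences. For all 3 each 5-Fu injection library was above each HS library. The 5-Fu injection libraries also had a higher mitochondrial share of reads and a lower sum of fibroblast markers than every HS library, and the part of either in these differences was not tested. NFKBIA, outside the 25, was called higher at 1.30 (SE 0.16, adjusted p = 0.0134), with FPKM of 108, 137 and 115 in the 5-Fu injection group and 49.2, 47.3 and 47.6 in HS. That call was lost when any one HS library was left out (adjusted p from 0.0543 to 0.0682) and with only the groups compared in the fit (adjusted p = 0.0948).

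The treated groups were also set against each other and against NS. In drug-loaded MNs against 5-Fu injection 0 of 25 were called, as were 0% of all genes, 0 had an unadjusted p under 0.05 (15.1% of all genes), and the median log2 fold change was -0.45 over the members and 0.00 over all genes. ISG15 (-1.70, SE 1.08, adjusted p = 0.466), IRF7 (-1.55, SE 0.89, adjusted p = 0.423) and OASL (-1.21, SE 1.02, adjusted p = 0.589) had the largest differences. DHX58 and IFIH1 were lower in the drug-loaded MNs group without overlap, where 8.42% of all genes were. With standard errors of 0.24 to 1.31, differences of this size between the 2 forms of the drug could not be separated from the spread between rabbits. The dose carried by a patch was not analysed here.

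In drug-loaded MNs against NS all 25 log2 fold changes were negative (median -1.05, all genes 0.00), 0 were called where 0.873% of all genes were, and 4 had an unadjusted p under 0.05 (12.9% of all genes). CXCL10 (-2.92, SE 1.31, adjusted p = 0.383), RSAD2 (-2.50, SE 1.13, adjusted p = 0.385) and ISG15 (-2.26, SE 1.08, adjusted p = 0.405) had the largest differences. Without NS replicate 3, 4 genes were called lower, ISG15, RSAD2, DHX58 and SAMD9, where 0.218% of all genes were called lower. CCL20, outside the 25, was called at -2.58 (SE 0.42, adjusted p = 0.0232), which was lost without NS replicate 1 or 2 or drug-loaded MNs replicate 1 or 3 (adjusted p from 0.0798 to 0.0993) and in the fits with a replicate block (adjusted p = 0.0621) or only the groups compared (adjusted p = 0.0691). In 5-Fu injection against NS all 25 were negative (median -0.64, all genes 0.01), 0 were called where 0.00753% of all genes were, and 0 had an unadjusted p under 0.05 (14.9% of all genes). RSAD2 (-1.98, SE 1.13, adjusted p = 0.42), CXCL10 (-1.76, SE 1.31, adjusted p = 0.53) and CMPK2 (-1.38, SE 0.68, adjusted p = 0.36) had the largest differences. These comparisons share the NS libraries with HS against NS, and without NS replicate 2 the median over the 25 genes was -0.016 for 5-Fu injection against NS, -0.53 for drug-loaded MNs against NS and -0.63 for HS against NS.

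**Figure D5:**
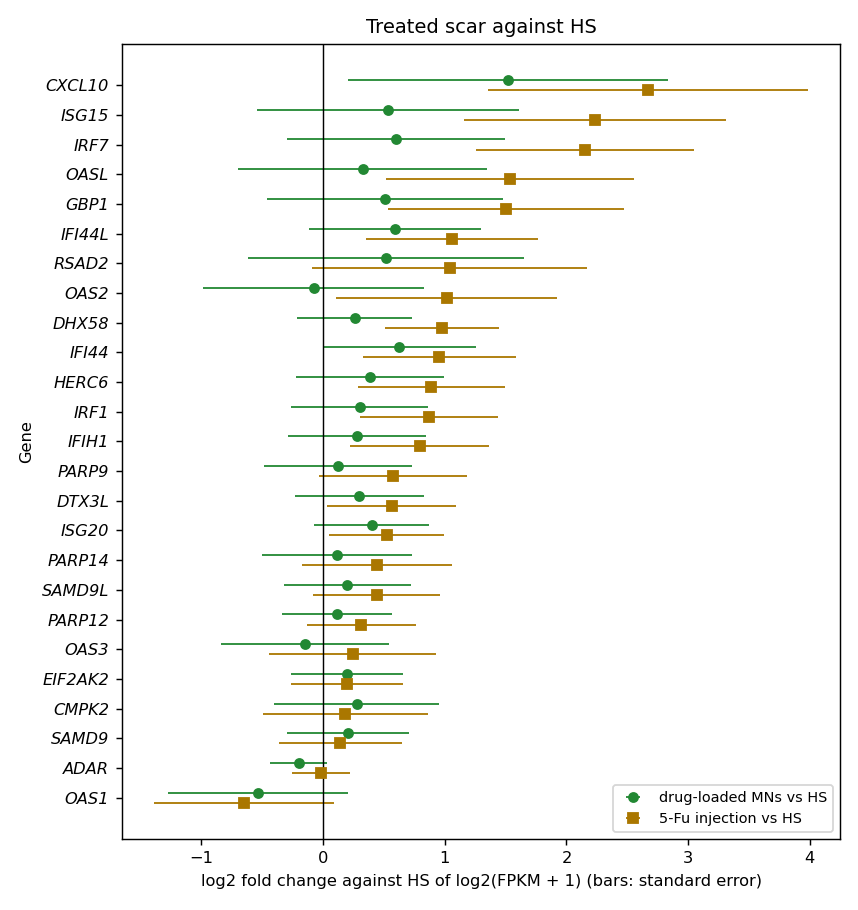
Log2 fold change against HS (horizontal axis, log2(FPKM + 1) scale, bars 1 standard error) of 25 interferon response genes (vertical axis) for drug-loaded MNs (green circles) and 5-Fu injection (brown squares), which share the HS libraries. Of the circles 21 and of the squares 23 lie right of 0, and 0 of either were called.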

How the data were processed

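RNA-seq was made by the study's authors from full-thickness ear of 12 rabbits, and the authors deposited 1 table of FPKM values per gene and library. The aligner, counting tool, strand setting and genome build are not given in the sources used here, so reads of overlapping or antisense genes cannot be told apart. FPKM times gene length fell on whole multiples of a step in 100% of values (tolerance 0.05), which gave the reads on genes. The deposited library sizes were 0.873 to 1.20 times the reads on genes. Members were matched by symbol, and absent members by protein name. The members and lists were chosen with earlier results of these data known.

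Groups came from the sample labels. One limma 3.58.1 model (R 4.3.3) of 4 groups was fitted to log2(FPKM + 1) over the 13287 genes averaging an FPKM of 1 or more, with a mean-variance trend, and p-values were two-sided and Benjamini-Hochberg adjusted over all genes within each comparison. Fold changes on this scale understate the change of low genes. DESeq2, which the study ran on counts, was not used here; the reads counted back from FPKM were tested with limma voom as an alternative. A call needed an adjusted p under 0.05 together with a log2 fold change beyond 1 in size. The procedure was tested on simulated data with noise independent between genes and with changed genes drawn outside the most variable ones. That test does not show how often a change would be called in genes as variable as these members, which moved together by rabbit. Named genes were the 3 members per role with the largest change of HS against NS, the 3 with the largest change in every other comparison, and, per related list, called genes and the 3 largest changes, with IFNAR1 and IFNAR2. One gene that the rule names is not reported here. OAS1 was singled out after its values were seen. Alternatives were a pseudocount of 0.1, no filter, a higher filter (FPKM of 5), quantile normalization, rescaling to total reads, adjusted p alone, only the 2 groups compared, no trend, limma voom on the reads counted back, the replicate number as a block, and each library left out. Genes named by protein name were added after the values were seen. Promoter motifs and sequences were not analysed here.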

Additional observations from a re-analysis of the deposited data

How the results depend on the processing

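The count of interferon response genes called was 0 in all 6 comparisons, and it stayed 0 under every alternative run apart from 3 cases. In HS against NS it was 20 without NS replicate 3 and 8 with FPKM rescaled to the total of reads, a rescaling that shifted the median over all genes tested to -0.33 (log2). In drug-loaded MNs against NS it was 4 without NS replicate 3. Leaving out 1 library at a time gave counts of 0 to 20 for HS against NS, 0 to 4 for drug-loaded MNs against NS and 0 for the others. The median log2 fold change of the members then ranged from -2.05 to -0.63 for HS against NS, from -0.038 to 0.48 for drug-loaded MNs against HS, from 0.54 to 0.88 for 5-Fu injection against HS, from -0.81 to -0.18 for drug-loaded MNs against 5-Fu injection, from -1.78 to -0.53 for drug-loaded MNs against NS and from -1.46 to -0.016 for 5-Fu injection against NS, where -1.46 came without NS replicate 3. Single genes that changed sign were IRF7 in drug-loaded MNs against HS (-0.13 without drug-loaded MNs replicate 1, and -0.13 to 0.99 over all libraries left out) and, in HS against NS, IFNAR2 (-0.013 under quantile normalization, -0.32 rescaled, and -0.12 to 0.12 over libraries left out, below 0 without NS replicate 3 or HS replicate 2), PTPN2 (-0.13 rescaled) and PTPN6 (-0.52 to 0.50 over libraries left out, above 0 without NS replicate 2 or HS replicate 1), none of them called. BATF2 lost its call under most alternatives, and TAP1 and IFNLR1 under 7 and 2. The cause of these shifts was not tested, beyond the smaller number of samples where a library was left out.

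Same-numbered libraries came from different rabbits, and the deviations of same-numbered libraries correlated between -0.27 and 0.44, with no pair of groups above 0.1 for all 3 numbers. With the replicate number as a block, 0 members were called in each comparison and the median for HS against NS was -1.34. With 3 rabbits per group, differences of the size seen between NS rabbits limit what can be called, and ISG20, at 3 to 50 reads, is limited by depth as well.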
